A study of Canis lupus familiaris with 13 samples.

Results

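Endothelial cells line blood and lymphatic vessels, and the genes described here are 32 that mark these cells or control their growth. They comprise surface and junction genes, growth factor receptors, transcription factors with NOS3, lymphatic genes and secreted ligands. All probe sets that the array annotation assigned to one of these symbols were taken. The array read 30 of the 32 genes through 62 probe sets, out of 15115 named genes and 42924 probe sets in all. SOX17 and SOX18, which encode endothelial transcription factors, were not among the annotated symbols. A probe set is a group of short probes for a single transcript. It was the only one for 10 of the genes, whereas the other 20 genes had up to 4 each, and each gene is given at its probe set of highest mean unless another is named.

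Transcript levels were measured on an Affymetrix canine array in biopsies of 13 primary, untreated soft tissue sarcomas of dogs, malignant tumours of connective tissue. The metastatic group held 5 tumours (MET1 to MET5), and the non-metastatic group held 8 (NM1 to NM8) from cases that stayed free of metastasis for 1 year or more. Neither tumour subtype nor dog is named in the labels, so each p-value reflects only the spread among these tumours. The comparison asks which transcripts differ between primary tumours of the 2 outcomes.

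Values are log2 intensities, on which a difference of 1 is a doubling. Sample medians lay between 6.71 and 6.94. Poly-A control transcripts, which are added to RNA before labelling, fell into 3 patterns. Pattern A held all 5 metastatic tumours and NM5 to NM8, pattern B (NM1, NM3 and NM4) had no control signal, and pattern C was NM2 alone, with a large excess at the 3′ end. Only pattern A held both groups, so the main comparisons are also given within it. The 42 poly-A control probe sets read between 2.63 and 7.16 in the pattern B samples, which is the range seen without a target. A value inside that range is not told apart from no signal.

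New vessels grow when VEGF ligands bind the receptors KDR and FLT1 on endothelial cells, and VEGFC acts through FLT4 on lymphatic vessels. Angiopoietins act through the receptor TEK, with TIE1 as its partner, to steady or loosen the vessel wall. The adhesion proteins PECAM1 and CDH5 hold neighbouring endothelial cells together, and VWF is stored in them for clotting. In sarcomas, as in other solid tumours, these transcripts come mostly from the vessels within the tissue, while the ligands are also made by tumour and stromal cells. In bulk tissue, fewer cells of a type and less RNA per cell cannot be told apart.

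Endothelial transcripts were present in every tumour. PECAM1, CDH5 and VWF lay above 7.16 in all 13 samples, as did 13 of the 30 genes measured, and the other 17 did so in 1 to 12 samples. Between the groups, almost nothing separated. A single probe set of 62 (1.61%), for the ligand gene VEGFB, passed the limma test at an adjusted p under 0.05, against 4.9% of all probe sets. Counted by gene it was 1 of 30, against 5.35% of all named genes. It was lower in metastatic tumours, as were 3.34% of all probe sets, while 1.56% were higher. At an unadjusted p under 0.05 the genes numbered 5 (VEGFB, NRP2, ANGPT1, FLT1 and PROX1), against 23.9% of all named genes. For none of the 62 probe sets were the groups free of overlap, against 2.63% of all probe sets (1.18% higher and 1.45% lower in metastatic tumours). Within pattern A, limma passed 0 of the 30 genes and 0 of the 62 probe sets, against 2.82% of all named genes and 2.78% of all probe sets. There 4 genes, ROBO4, NRP2, VEGFB and PGF, had an unadjusted p under 0.05 (20.2% of all genes).

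The differences between groups were small beside the spread among tumours. At the 30 probe sets of highest mean the median difference, metastatic minus non-metastatic, was 0.13 over all samples and -0.02 within pattern A, beside 0.05 for all named genes. It was positive for 20 genes and negative for 10, and 23 genes differed by less than 0.5. The median standard deviation within groups was 0.572 for these genes, against 0.32 for all named genes. NM2 had the highest value of all 13 samples for 16 of the 30 genes, as for 20.7% of all named genes. The lowest value came from a pattern B sample for 21 of the 30, as for 44.3% of all genes.

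**Figure D1:**
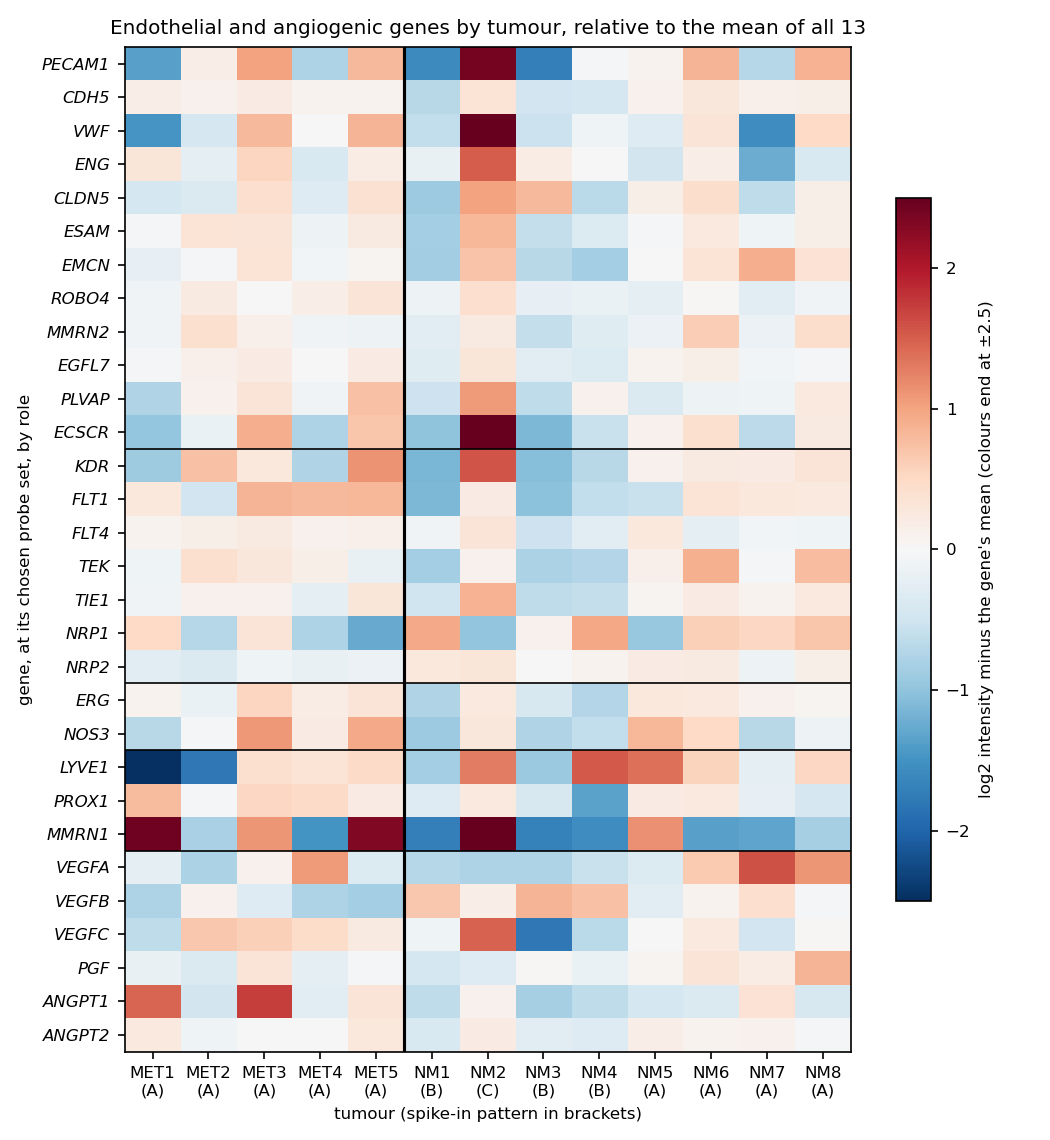
Colour gives the log2 intensity of each gene (rows, by role) in each tumour (columns, with the spike-in pattern in brackets) minus that gene's mean over the 13 tumours; colours end at 2.5 units. NM2 is the warmest column for the surface and junction genes, NM1 and NM3 are among the coolest, and the metastatic columns span both colours.

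Of the surface and junction genes, 12 were measured and 0 passed the limma test in either direction, at an unadjusted p under 0.05 as well. Their differences ran from -0.11 to 0.23. PECAM1, an adhesion receptor of endothelial cells, platelets and leukocytes, read 7.67, 9.20, 10.04, 8.27 and 9.84 in MET1 to MET5. In the non-metastatic tumours its lowest, median and highest values were 7.33, 9.06 and 11.42. The metastatic tumours lay wholly inside the non-metastatic range, which NM3 and NM2 bounded. The difference was -0.05 ± 0.63 (SE), with a limma adjusted p of 0.970, and all 4 PECAM1 probe sets differed by less than 0.2.

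CDH5, the cadherin of endothelial junctions, was nearly level in the metastatic tumours at 8.34, 8.28, 8.38, 8.26 and 8.27. Among non-metastatic tumours it ran from 7.48 through a median of 8.29 to 8.52. The 3 pattern B tumours were the low ones, at 7.48, 7.71 and 7.74, and the other 5 lay between 8.28 and 8.52. The difference of 0.20 ± 0.18 (SE, adjusted p = 0.502, limma) was -0.04 ± 0.08 within pattern A. At its other probe sets CDH5 differed by 0.102, 0.035 and 0.215. After group means were removed, these correlated with the first at 0.495, 0.664 and -0.015. They were above the no-target range in 1, 0 and 0 of the 13 samples. The one at 0.664 was not level in MET1 to MET5, at 5.43, 5.74, 6.69, 5.41 and 6.51. VWF, the clotting glycoprotein stored in endothelial cells, read 7.30, 8.35, 9.58, 8.76 and 9.62 in MET1 to MET5. It ran from 7.23 through a median of 8.57 to 11.33 in non-metastatic tumours, a difference of -0.09 ± 0.57 (limma adjusted p = 0.933). The groups overlapped along almost their whole ranges, with NM2 alone above 9.62.

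ECSCR, an endothelial cell-surface sialomucin, spanned 6.66 to 8.53 in metastatic and 6.50 to 10.50 in non-metastatic tumours. EGFL7, a factor secreted by endothelial cells, averaged 10.09 ± 0.12 (SD, n = 5) and 9.94 ± 0.23 (n = 8), a difference of 0.16. Its second probe set, also above 7.16 in all samples, differed the other way, by -0.48 ± 0.25 (SE, limma adjusted p = 0.254) over all samples and by -0.42 ± 0.16 within pattern A (adjusted p = 0.198). EMCN, a sialomucin of capillary and venous endothelium, averaged 9.42 ± 0.20 and 9.38 ± 0.71, and differed by -0.377 ± 0.185 (SE) within pattern A (limma adjusted p = 0.291). Its second probe set differed by -0.308 ± 0.556 over all samples and by -1.056 ± 0.513 within pattern A (limma adjusted p = 0.753 and 0.287). Within pattern A the difference of ENG, a TGF-beta co-receptor of proliferating endothelium, was 0.56 ± 0.29 (SE), against 0.13 over all samples, and its limma adjusted p there was 0.320. ROBO4, a guidance receptor that steadies vessels, differed by 0.21 ± 0.13 over all samples and 0.27 ± 0.12 within pattern A (adjusted p = 0.233, limma). Its second probe set correlated at -0.367 with the first after group means were removed, so the gene has no settled profile here. The junction gene CLDN5, the adhesion gene ESAM, the matrix gene MMRN2 and PLVAP, which forms the diaphragms of fenestrated vessels, differed by -0.11, 0.23, 0.07 and 0.11. A second CLDN5 probe set differed by -0.542 ± 0.489 (limma adjusted p = 0.507), and by -0.242 within pattern A.

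**Figure D2:**
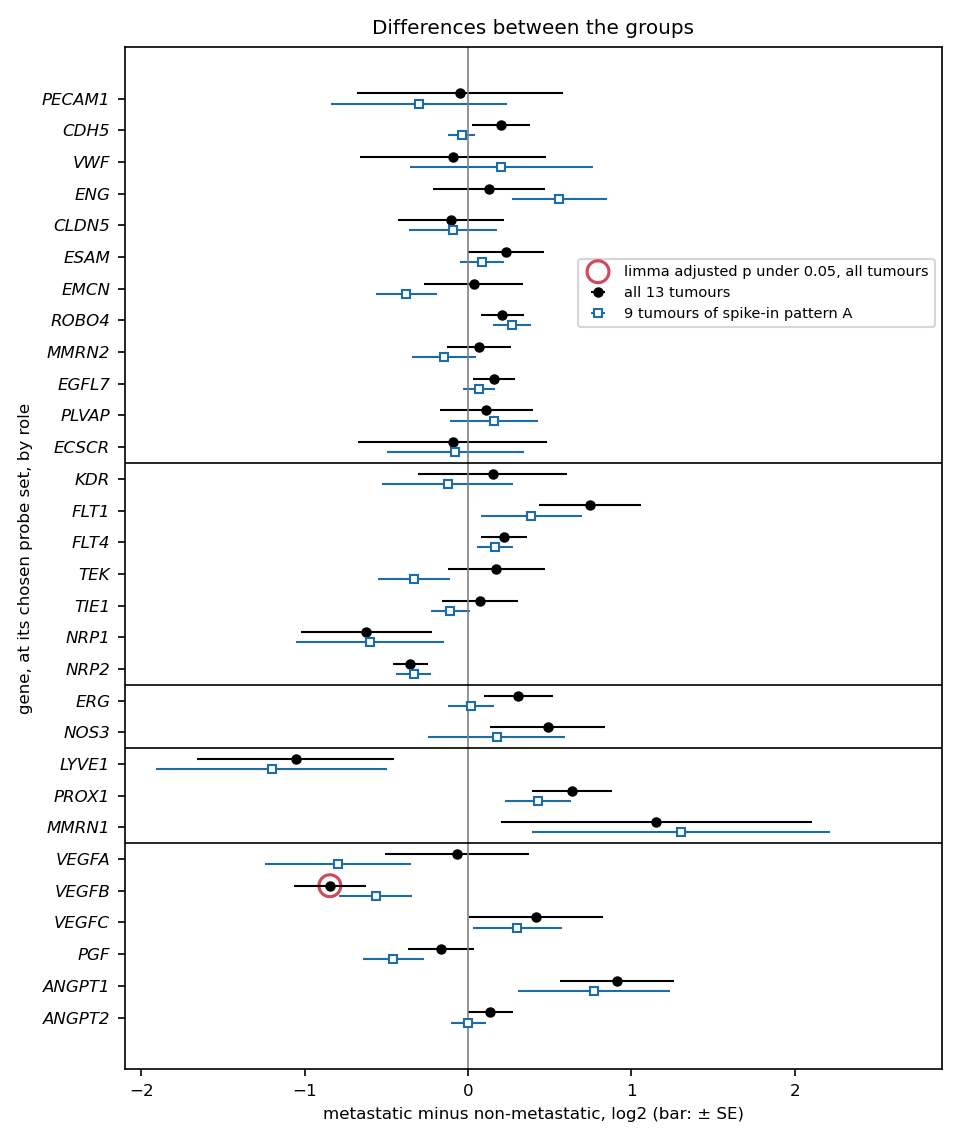
Each point is the difference in log2 intensity, metastatic minus non-metastatic, at a gene's probe set of highest mean, with its standard error: black circles over all 13 tumours and blue squares over the 9 tumours of spike-in pattern A. The ringed point, VEGFB at -0.84, is the only one with a limma adjusted p under 0.05, and the 12 surface genes lie between -0.11 and 0.23.

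Of the 7 receptors, 0 passed the limma test, and 2, NRP2 and FLT1, had an unadjusted p under 0.05. KDR, the main signalling receptor for VEGFA, read 8.07, 9.69, 9.23, 8.22 and 10.09 in MET1 to MET5. Its lowest, median and highest values in non-metastatic tumours were 7.82, 9.13 and 10.53. MET1 and MET4 sat with the low pattern B tumours, while the 4 non-metastatic tumours of pattern A were tightly grouped at 9.18 ± 0.09 (SD). The difference was 0.15 ± 0.45 (SE, limma adjusted p = 0.856) over all samples and -0.13 ± 0.40 within pattern A. TEK, the angiopoietin receptor, read 7.80, 8.29, 8.18, 8.04 and 7.71 in metastatic tumours and ran from 7.05 through 7.94 to 8.79 in the others. All 3 pattern B tumours lay below every metastatic tumour, and NM6 and NM8 lay above every one. Its difference was 0.17 ± 0.30 over all samples (limma adjusted p = 0.739) and -0.33 ± 0.22 within pattern A.

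FLT1, a VEGF receptor that also acts as a decoy, read 6.63, 5.89, 7.22, 7.18 and 7.20 in MET1 to MET5. In the non-metastatic group it ran from 5.24 through a median of 6.18 to 6.71. MET3, MET4 and MET5 exceeded every non-metastatic tumour, MET1 and MET2 did not, and the same 3 tumours were the ones above the no-target range. The difference was 0.75 ± 0.31 (SE) with a limma adjusted p of 0.172, and 0.39 ± 0.31 (adjusted p = 0.522) within pattern A. The other 2 FLT1 probe sets differed by 0.28 and 0.91.

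NRP2, a co-receptor for VEGFC and semaphorins, had the narrowest spread of the 30, with a within-group standard deviation of 0.134, and averaged 8.53 ± 0.11 (SD, n = 5) against 8.89 ± 0.15 (n = 8). Its difference of -0.35 ± 0.11 (SE) had an adjusted p of 0.0725 in limma. Within pattern A the difference was -0.33 ± 0.11 (adjusted p = 0.130). Of its other probe sets 1 was negative (-0.33) and 1 positive (0.17). NRP1, the related co-receptor for VEGFA, was negative at all 4 probe sets, from -0.63 to -0.25, and its lowest adjusted p among them was 0.298. FLT4, the VEGFC receptor of lymphatic endothelium, differed by 0.22 ± 0.14 (0.17 within pattern A), and TIE1, the partner of TEK, by 0.08 ± 0.23 (-0.11). Further FLT4 probe sets, within the no-target range in every sample, differed by -0.027 and 0.117. ERG, a transcription factor that maintains endothelial identity, differed by 0.31 ± 0.21, and NOS3, the endothelial nitric oxide synthase, by 0.49 ± 0.35. Both were close to zero or smaller within pattern A, at 0.02 and 0.18, and their limma adjusted p-values over all samples were 0.374 and 0.401. NOS3 was above the no-target range in only 3 of 13 samples. Its second probe set, within that range in every sample, differed by 0.050 and correlated with the first at 0.396.

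Of the 3 lymphatic genes 0 passed the limma test, and 1 (PROX1) had an unadjusted p under 0.05. MMRN1, a protein of lymphatic endothelium and platelets, read 8.29, 5.04, 6.96, 4.37 and 8.16 in MET1 to MET5. In NM1 to NM8 it read 4.14, 9.63, 4.16, 4.31, 6.99, 4.50, 4.54 and 5.02. Only MET1, MET5 and NM2 were above the no-target range, and MET4 and MET2 lay with the lower non-metastatic tumours. The difference of 1.15 ± 0.95 (SE) had an adjusted p of 0.465 in limma, and was 1.30 ± 0.91 within pattern A. It rested on single tumours: it was 1.75 without NM2, 0.72 without MET1 and 0.75 without MET5. Without pattern B it was 0.43, with the ACTB covariate 0.48 and with the replicate block 0.72.

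LYVE1, a hyaluronan receptor of lymphatic endothelium and of some macrophages, read 3.50, 4.39, 6.59, 6.53 and 6.67 in the metastatic tumours. The non-metastatic values ran from 5.25 through a median of 6.72 to 7.72. MET1 and MET2 lay below every non-metastatic tumour, MET3 to MET5 near the non-metastatic median, and only NM2, NM4 and NM5 were above the no-target range. The difference was -1.05 ± 0.60 (SE, adjusted p = 0.295, limma), and within pattern A it was -1.20 ± 0.71. Without MET1 it was -0.55 (adjusted p = 0.581, limma). The 12 macrophage markers had 0 genes past the limma test and 0 at an unadjusted p under 0.05, with a median difference of -0.11 (-0.10 within pattern A). Their mean level ranged from 8.07 to 10.06 in metastatic and from 8.38 to 9.94 in non-metastatic tumours, with 0 markers at zero. LYVE1 correlated positively with all 12 (median r 0.423, 0 past the threshold), and their part in its values was not tested.

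PROX1, the transcription factor that sets lymphatic identity, read 7.19, 6.35, 6.91, 6.86 and 6.60 in MET1 to MET5. In the non-metastatic tumours it ran from 5.06 (NM4) through 6.13 to 6.64. MET1, MET3 and MET4 exceeded every non-metastatic tumour, but only MET1 was above the no-target range. Its difference was 0.64 ± 0.25 (SE), with a limma adjusted p of 0.144 over all samples and 0.269 within pattern A, and it was 0.37 without pattern B. The lymphatic genes thus pointed different ways: MMRN1 and PROX1 were positive and LYVE1 negative, each short of the threshold. Of the 4 other lymphatic markers measured, 0 passed, and PDPN was the 1 at an unadjusted p under 0.05, with a difference of -1.84 ± 0.76 (adjusted p = 0.164, limma), and -2.07 ± 1.05 within pattern A.

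Among the 6 ligands, VEGFB was the gene that passed. VEGFB is a VEGF family member that binds FLT1 and is best known for its role in heart and fat tissue. It read 10.18, 11.06, 10.63, 10.18 and 10.09 in MET1 to MET5, and 11.62, 11.12, 11.79, 11.68, 10.66, 11.04, 11.36 and 10.91 in NM1 to NM8. MET1, MET3, MET4 and MET5 lay below every non-metastatic tumour, and MET2 lay above 3 of them. The 3 highest values of the series came from the pattern B tumours. The mean fell from 11.27 ± 0.40 (SD, n = 8) in non-metastatic to 10.43 ± 0.41 (n = 5) in metastatic tumours, a difference of -0.84 ± 0.22 (SE) with an adjusted p of 0.0432 in limma. Within pattern A the difference was -0.56 ± 0.22 (adjusted p = 0.206), and without pattern B it was -0.59 (adjusted p = 0.218).

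A second VEGFB probe set gave another picture. Its mean was 8.98 ± 0.26 (SD, n = 5) for the metastatic group and 8.89 ± 0.40 (n = 8) for the other, a difference of 0.09 ± 0.20 (SE, limma adjusted p = 0.796). In it the pattern B tumours were the lowest, with a mean of 8.43, where the first probe set had them highest, with a mean of 11.70. The correlation between the 2 probe sets was -0.394 after group means were removed, although both read above 7.16 in all 13 samples. The lower VEGFB level in metastatic tumours was thus seen at 1 of its 2 probe sets. That probe set passed in only 3 of the 13 fits that each left out 1 sample: those without MET2, NM2 or NM5. Leaving out MET1, MET3, MET4, MET5, NM1, NM3, NM4, NM6, NM7 or NM8 put the adjusted p between 0.0509 and 0.108, with differences from -0.90 to -0.76.

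**Figure D3:**
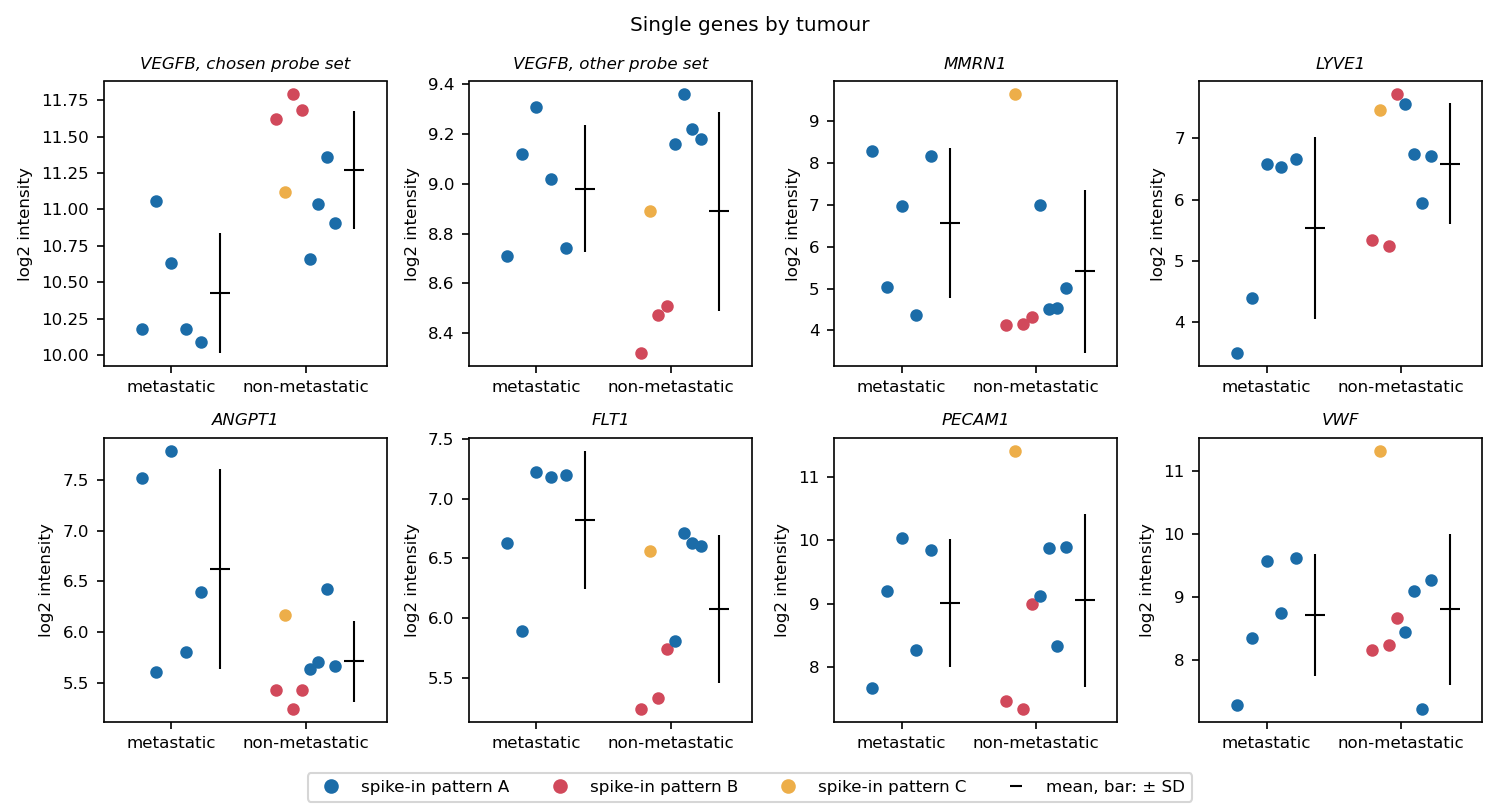
Log2 intensity of 7 genes in each tumour, with both VEGFB probe sets, by group; points are tumours coloured by spike-in pattern, and each cross with its bar gives the group mean ± SD. The pattern B tumours are the 3 highest points at the first VEGFB probe set and the 3 lowest at the second, and NM2 stands highest for MMRN1, PECAM1 and VWF.

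VEGFA, the principal driver of vessel growth, read 9.83, 9.29, 10.20, 11.14 and 9.75 in MET1 to MET5. Non-metastatic values ran from 9.31 through a median of 9.63 to 11.68. The 4 highest levels were in NM7, NM8, MET4 and NM6, so both groups held high and low tumours. The difference was -0.07 ± 0.44 (SE, limma adjusted p = 0.938), and -0.80 ± 0.45 (adjusted p = 0.354) within pattern A. Low oxygen (hypoxia) induces VEGFA, and 15 regulators and targets of the response to it were counted. Of these, 0 passed the limma test and the median difference was 0.29, or 0.09 within pattern A. At an unadjusted p under 0.05 there were 5 (23.9% of all named genes), and 1 within pattern A (20.2%). EGLN3, an oxygen-sensing hydroxylase that hypoxia induces, led them with 1.23 ± 0.42 (adjusted p = 0.101, limma), and 0.98 ± 0.36 within pattern A.

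ANGPT1, the ligand that activates TEK, read 7.52, 5.61, 7.79, 5.80 and 6.39 in MET1 to MET5. It ran from 5.24 through 5.64 to 6.42 in the non-metastatic tumours. Only MET1 and MET3 lay above both the non-metastatic tumours and the no-target range, and MET2, MET4 and MET5 lay among the others. The difference was 0.91 ± 0.35 (SE), with an adjusted p of 0.140 in limma over all samples and 0.390 within pattern A. ANGPT2, the context-dependent TEK antagonist, differed by 0.14 ± 0.14 (0.002 within pattern A). Its second probe set differed by 0.684 ± 0.350 (adjusted p = 0.247, limma), and by 0.355 ± 0.375 within pattern A. VEGFC, the lymphatic growth factor, differed by 0.42 ± 0.41 (0.30), and PGF, an FLT1 ligand, by -0.17 ± 0.20 (-0.46 ± 0.19 within pattern A, adjusted p = 0.217, limma).

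Further vessel genes were counted beside these. Over all samples 5.35% of all named genes and 4.9% of all probe sets passed the limma test. Within pattern A the shares were 2.82% and 2.78%. Of 24 other endothelial genes 1 passed the limma test. It was PROCR, the endothelial receptor of protein C, which fell by 1.37 ± 0.35 on the log2 scale in metastatic tumours (adjusted p = 0.0385), with 4 of 13 samples above the no-target range. PTPRB, a phosphatase of endothelial junctions, differed by 0.64 (adjusted p = 0.150) and by 0.12 within pattern A. CALCRL, an adrenomedullin receptor, differed by -1.60 (adjusted p = 0.165) and by -2.54 within pattern A (adjusted p = 0.0752). Of 9 Notch and ephrin genes 1 passed at its probe set of highest mean: EPHB4, a venous ephrin receptor, at -0.77 ± 0.18 (limma adjusted p = 0.0260), although it stayed within the no-target range in every sample. JAG1, a Notch ligand, passed at another probe set (-1.80 ± 0.42, limma adjusted p = 0.0270) and differed by 0.32 at the one of highest mean. Of 13 vessel wall matrix genes and angiogenesis inhibitors 1 passed: NID2, a basement membrane protein, at -1.21 ± 0.29 (limma adjusted p = 0.0311). NID2 and the second JAG1 probe set also passed within pattern A, at -1.27 (adjusted p = 0.0440) and -1.70 (adjusted p = 0.0191), while PROCR and EPHB4 did not (adjusted p = 0.0827 and 0.103).

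Pericytes and smooth muscle cells, which wrap vessels, gave 0 of 12 markers past the limma test and 0 at an unadjusted p under 0.05. Their median difference was 0.28 (0.20 within pattern A), with ACTA2, the smooth muscle actin, the largest at 1.14 ± 0.54 (adjusted p = 0.218, limma), and 0.87 ± 0.43 within pattern A. Red cell and platelet markers gave 0 of 5, with 1, the haem synthesis gene ALAS2, at an unadjusted p under 0.05 (-0.37, limma adjusted p = 0.170, and -0.17 within pattern A).

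The surface and junction genes tended to vary together from tumour to tumour, and the 3′ excess of the ACTB control, given below, moved with this variation across patterns. Each pair was compared over the 13 tumours after the mean of each group was removed, so that a difference between groups could not create a correlation. A difference between patterns was not removed by this and could create one. Among the 66 pairs of surface and junction genes all 66 correlations were positive, with a median Pearson r of 0.654, against 0.030 for all pairs of named genes. Within pattern A the median was 0.532, with 60 of 66 positive, against -0.001 for all gene pairs. With both spike-in pattern and group means removed it was 0.424, and without NM2 it was 0.467. Receptor pairs had a median of 0.343 (0.071 within pattern A), the 3 lymphatic pairs 0.238 (0.021) and ligand pairs 0.067 (-0.026).

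An r over 0.8 was reached by 8.28% of the 435 pairs of the 30 genes, against 1.52% of all pairs of named genes. Within pattern A the shares were 4.83% and 1.22%. A permutation test within groups was run on the 435 pairs but not over all gene pairs. It exchanged non-metastatic tumours of different patterns, so its p-values do not set aside a level shared within a pattern. Among non-metastatic tumours, 27 of the 30 genes had a higher mean in pattern A than in pattern B, as did 60% of all named genes. Of the 435 pairs, 50 (11.5%) passed the permutation test at an adjusted p under 0.05, 49 of them positive. CDH5, EGFL7 and TIE1 each took part in 9 of these pairs, and ECSCR, KDR and PECAM1 in 8. Pairs of a surface gene with a receptor made up 18 of the 50, and pairs of surface genes 16. CLDN5, ENG, FLT4, LYVE1, NRP1, NRP2, PGF, PROX1 and VEGFA had none. By Spearman's rho 39 pairs passed. The count rested on single samples: 4 pairs passed without NM2, 21 without NM8, 25 without NM6 and 30 without NM1. Among the 9 tumours of pattern A alone 0 passed, but this says little. The exact test there has 2880 arrangements, so its smallest p is 0.000347. Even at that p, fewer than 4 pairs could not pass. PECAM1 with ECSCR, at r = 0.960, had an exact permutation p of 0.000694 and an adjusted p of 0.264. With pattern and group means removed over all tumours, a test with more arrangements, 0 of the 435 pairs passed as well. In that test PECAM1 with ECSCR had r = 0.925 and a permutation adjusted p of 0.0696.

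**Figure D4:**
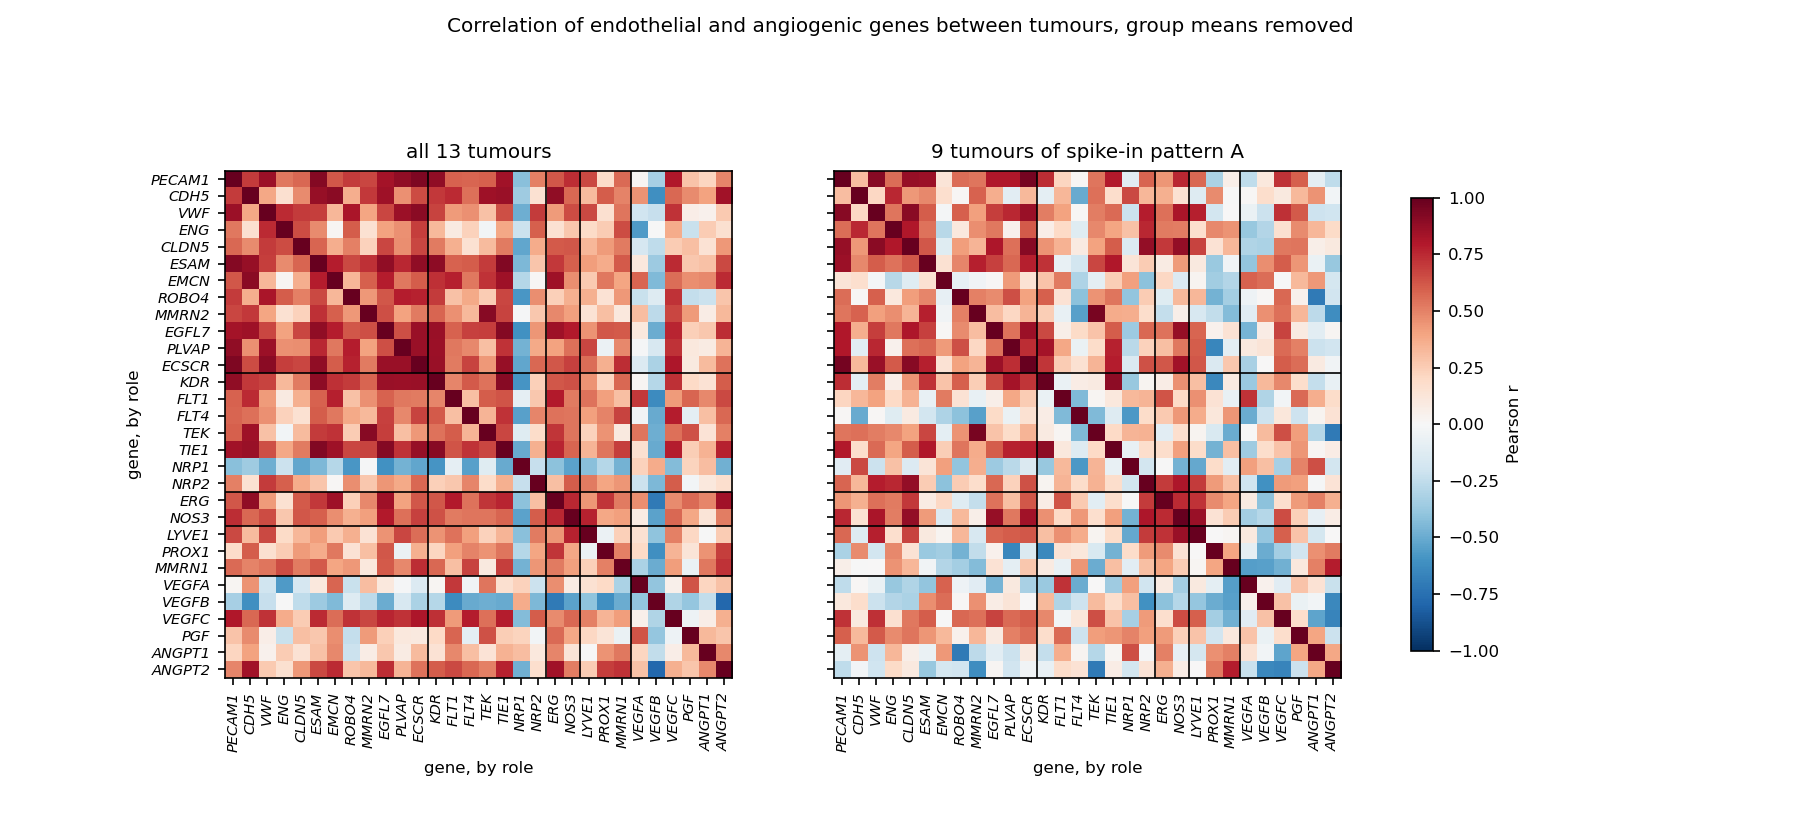
Pearson r between each pair of the 30 genes, ordered by role, after removing group means: left over all 13 tumours, right over the 9 tumours of spike-in pattern A. The block of surface genes at the upper left is mostly red in both panels (median r 0.654 and 0.532), and the rows of NRP1 and VEGFB are mostly blue on the left.

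The closest pair was PECAM1 with ECSCR. It had r = 0.937 and rho = 0.978 (permutation p = 1e-05, the smallest that the resampling can give, adjusted p = 0.00435), r = 0.960 within pattern A and 0.943 without NM2 and NM3, the 2 tumours farthest from the PECAM1 median. MMRN2 and TEK, a matrix protein of the endothelial surface and the angiopoietin receptor, had r = 0.909 and rho = 0.912 (permutation adjusted p = 0.00707 for r), with 0.950 within pattern A and 0.775 without NM6 and NM8. KDR and TIE1 had r = 0.909 and rho = 0.872 (permutation adjusted p = 0.00684), 0.898 within pattern A and 0.838 without NM1 and NM2. PECAM1 and the adhesion molecule ESAM had r = 0.916 and rho = 0.896 (permutation adjusted p = 0.00684), 0.858 within pattern A and 0.835 without NM2 and NM3. These 4 pairs thus kept an r of at least 0.775 in each of these subsets. Signal was limited for some of their genes: ESAM was above the no-target range in 3 of 13 samples, MMRN2 in 5, ECSCR in 7 and TEK in 10. PECAM1, KDR and TIE1 were above it in all 13.

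ESAM with TIE1 and EGFL7 with TIE1 completed the 6 highest, at r = 0.929 and 0.919, rho = 0.856 and 0.811, and a permutation adjusted p of 0.0104 for each. Within pattern A they had r = 0.803 and 0.608, and without the 2 tumours farthest from the median 0.898 and 0.845. The next pair, CDH5 with EMCN, depended on the pattern. It had r = 0.902 and rho = 0.890 over 13 tumours (permutation adjusted p = 0.0306) but 0.171 within pattern A. The pattern B tumours were low for both genes and lay apart from the others. It was added after its values were seen.

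**Figure D5:**
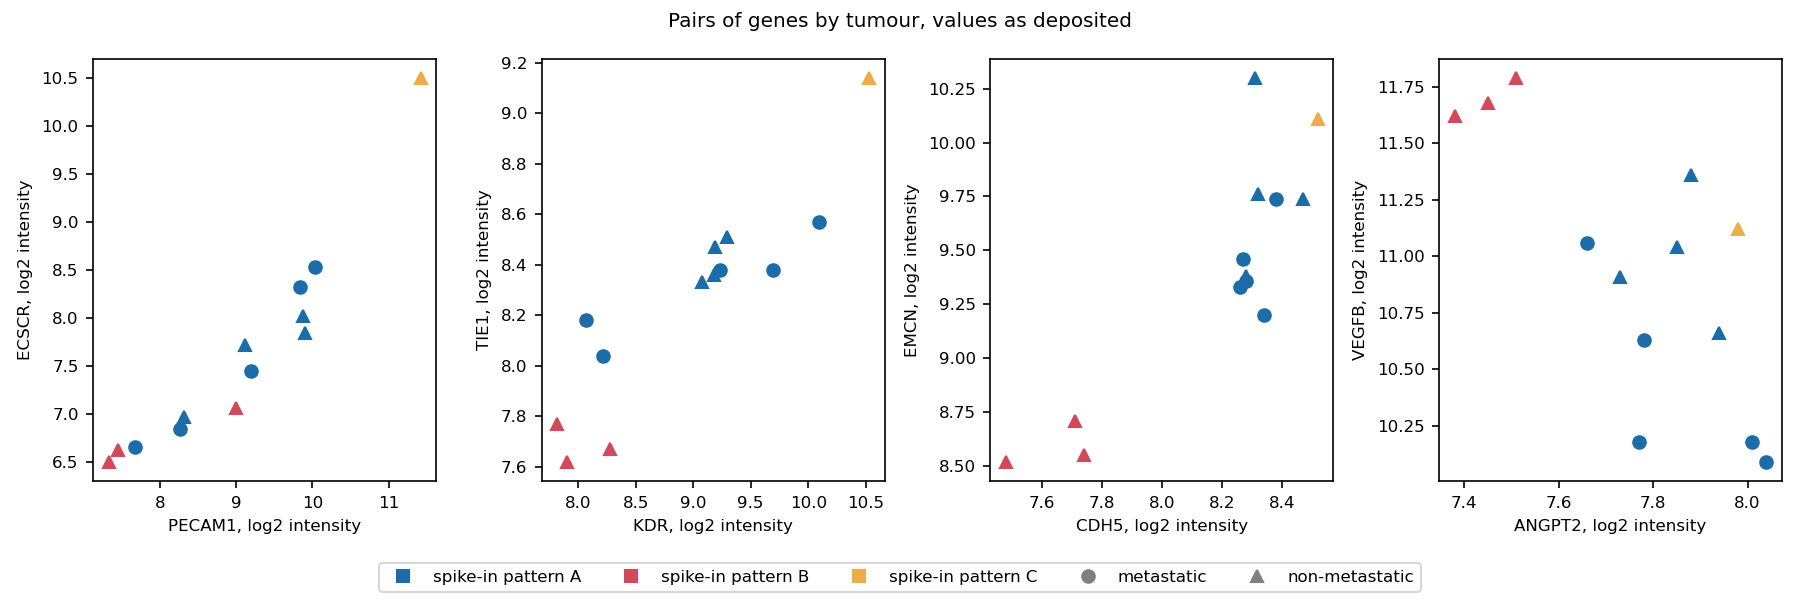
Log2 intensities of 4 pairs of genes, each point a tumour, with colour for spike-in pattern and shape for group. PECAM1 with ECSCR and KDR with TIE1 form bands on which metastatic and non-metastatic tumours mix, CDH5 with EMCN splits into the 3 pattern B tumours and the rest, and VEGFB is highest where ANGPT2 is lowest, in pattern B.

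At the low end stood VEGFB, at the probe set that its second probe set opposes, so these values belong to that probe set. It was in the 4 lowest correlations, with ANGPT2 (r = -0.785, rho = -0.671, permutation adjusted p = 0.0383 for r), ERG (r = -0.705, rho = -0.590, adjusted p = 0.0751), FLT1 (r = -0.627, rho = -0.492, adjusted p = 0.116) and CDH5 (r = -0.612, rho = -0.448, adjusted p = 0.121). Without the 2 tumours farthest from the median these were -0.741, -0.634, -0.393 and -0.422. Within pattern A they were -0.647, -0.412, -0.302 and 0.175, so that with CDH5 the sign turned. The VEGFB and ANGPT2 pair passed in only 3 of the 13 fits that left out 1 sample, without MET3, MET4 or NM7. In the other 10, which left out MET1, MET2, MET5, NM1 to NM6 or NM8, its permutation adjusted p was 0.0524 or higher, with r between -0.836 and -0.754 over all 13.

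Ligands and their receptors were paired by textbook knowledge, after the values had been seen, and 0 of 10 pairs passed. VEGFA and FLT1 had r = 0.706 and rho = 0.676 (permutation p = 0.0130 and 0.0219, adjusted p = 0.0753 for r). Their r was 0.723 within pattern A and 0.647 without MET2 and NM1. FLT1 was above the no-target range in only 3 of the 13 samples. With KDR, its main receptor, VEGFA had r = 0.023 and rho = 0.050 (permutation p = 0.945 and 0.881), and -0.368 within pattern A. VEGFC and FLT4 had r = 0.787 and rho = 0.538 (permutation p = 0.00763 and 0.0714, adjusted p = 0.0584 for r), which was 0.110 within pattern A and 0.302 without NM2 and NM3. ANGPT2 and TEK had r = 0.503 (rho = 0.412, permutation p = 0.134 and 0.219) but -0.705 within pattern A (exact permutation p = 0.0139, unadjusted). ANGPT1 and TEK had r = 0.134 and rho = 0.281 (permutation p = 0.540 and 0.301). VEGFA also correlated positively with 14 of the 15 hypoxia genes, with a median r of 0.327 and 0 past the threshold over a family of 2820 comparisons. The closest was SLC2A1, the glucose transporter, at r = 0.706, rho = 0.685 (permutation adjusted p = 0.125 and 0.171) and 0.745 within pattern A.

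The mean of 6 endothelial genes (PECAM1, CDH5, TIE1, ROBO4, ESAM and ECSCR), each centred on its mean over the 13 tumours, was taken as a summary, although the 2 probe sets of ROBO4 disagree. For CDH5, the other probe sets correlated with the one used at only -0.015 to 0.664. ESAM, ROBO4 and ECSCR were above the no-target range in only 3, 6 and 7 of the 13 tumours. The mean was highest in NM2 (1.29), followed by MET3 (0.42), MET5 (0.41), NM6 (0.33) and NM8 (0.26). It was lowest in NM1 (-0.79), NM3 (-0.79), MET1 (-0.39), NM4 (-0.35), MET4 (-0.27) and NM7 (-0.25), with MET2 (0.13) and NM5 (0.01) between. Tumours of both groups thus stood at the upper and lower ends within pattern A. ACTB, an actin control read at both of its ends, has a 3′ excess that grows as RNA is shortened, and this excess moved with this order across patterns. It was 0.39 to 0.88 in pattern B, 1.23 to 2.87 in pattern A and 3.14 in NM2, and correlated with the mean at r = 0.787 over 13 group-centred tumours and 0.171 within pattern A. In NM2 the poly-A controls, which are added to the RNA, also had a 3′ excess, of 3.54, against 0.74 to 0.96 in pattern A. The part of either excess in the covariation across patterns was not tested.

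Outside the 6, KDR (r = 0.914), EGFL7 (0.903) and PLVAP (0.860) followed the mean most closely, and NRP1 (-0.496), VEGFB (-0.388) and VEGFA (0.024) had the lowest correlations with it. These are descriptions over 13 group-centred tumours, and the 6 genes are part of the mean. VEGFC followed it at 0.822 (0.671 within pattern A, and 0.668 without NM2, where PGF had 0.723). The lymphatic gene MMRN1 had 0.667 over all samples and 0.114 within pattern A. Pericyte and smooth muscle markers were positive for 12 of 12, with a median r of 0.650 (0.592 within pattern A), and their mean level ranged from 7.57 to 8.46 in metastatic and from 7.08 to 8.48 in non-metastatic tumours, NM2 the highest. Other endothelial genes were positive for 20 of 24 (median 0.557, and 0.440 within pattern A). Macrophage markers were positive for 8 of 12, with a median of 0.127, and -0.087 within pattern A. A positive r was common, so these counts alone say little. Ranked from the lowest among all other named genes, an r of 0.002 (TAL1) stood at percentile 38.2. There 0.194 (CD68) stood at percentile 50.7 and 0.552 (SELP) at 75.3. The macrophage median thus lay below the middle of all other named genes, and the pericyte and other endothelial medians above percentile 75.3.

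Of all other named genes, the 8 closest to the mean were KANK3 (0.982), SNX7 (0.948), NPR1 (0.947), OR6A2 (0.946), CBY2 (0.946), MYO5B (0.940), SSPO (0.936) and ACTG2 (0.936), in Pearson r over 13 tumours. Among these 8 KANK3 was also the closest within pattern A, at 0.955, where the other 7 had 0.724 to 0.876. CD93, a receptor of endothelial cells, and SHANK3, chosen after their values were seen as the highest of the other endothelial list, reached 0.933 and 0.927.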

How the data were processed

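The 13 arrays' processed values were deposited by the authors in 1 table and were read here as log2 intensities from their range of 0 to 14.33. The software, background correction and normalization behind them are not given in the labels or files used here. Per the labels' protocols, silica-column RNA was biotin-labelled by 1-cycle 3′ in vitro transcription. Of 43035 probe sets, 111 Affymetrix controls were left out. In the platform annotation 29254 probe sets had 1 symbol, and 439 had several and were not used. RefSeq's gene table (assembly UU_Cfam_GSD_1.0) held the gene identifiers of 58 of the 62 probe sets, and 0 symbols changed. Sequences and coordinates were not used here.

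Groups were compared with limma 3.58.1 under R 4.3.3 (lmFit, eBayes), two-sided and without covariates, and p-values were adjusted over 42924 probe sets by Benjamini-Hochberg, with a threshold of 0.05. The fit was first tested on simulated data. Pair correlations used Python 3.11.15 and numpy 2.4.6, with 100000 two-sided permutations within groups (exact within pattern A), adjusted over 435 pairs. Patterns were read from the poly-A controls: 3′ mean under 6 (B), 3′ minus 5′ over 2 (C). The number of arrays limits the precision.

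The genes, the other lists and the tests were chosen with earlier results of these data known. Sample values are given for genes that passed, for the 6 largest differences and for PECAM1, CDH5, VWF, KDR, TEK and VEGFA, and of other lists up to 4 genes of smallest p are named. Pairs named are the 6 highest and 4 lowest. Alternatives tried were quantile and median normalization, a filter on dim probe sets, pattern as a subset or block, an ACTB 3′ minus 5′ covariate, a replicate block, array weights, another probe set per gene and leaving out each sample.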

Additional observations from a re-analysis of the deposited data

Results flagged for a closer look

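Of 60 combinations of gene and group, 3 held a sample far from the others of its group by Dixon's criterion, and chance alone marks about 1 group in 20. NM2 was the highest non-metastatic tumour for ROBO4, at 7.64 against 6.97 to 7.25 in the other 7, and for ECSCR, at 10.50 against 6.50 to 8.02. NM4 was the lowest for PROX1, at 5.06 against 5.98 to 6.64. NM2 is the sample whose poly-A controls had a 3′ excess, and NM4 is 1 of the 3 without poly-A signal.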

How the results depend on the processing

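The VEGFB call, the 1 count of these genes and of their probe sets past the threshold, became 0 under quantile normalization, within pattern A, without pattern B, with pattern as a block, with the ACTB covariate and with the replicate block, and 0 to 1 when 1 sample was left out. At this VEGFB probe set the difference stayed negative under all alternatives and lost its call in 8 of 10; taking the probe set of largest spread selected the same one, so it was no check, and the other VEGFB probe set is positive (0.09). In its place NRP2 passed with median centring and with array weights. The other lists had 3 genes past the threshold, 1 (NID2) within pattern A and with the pattern block, 0 without pattern B, with the ACTB covariate and with the replicate block, 5 with array weights, and 0 to 5 when 1 sample was left out. The cause of these changes was not tested.

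Small differences changed sign. PECAM1 was 0.061 under quantile normalization and 0.14 with the replicate block, and -0.31 to 0.29 when 1 sample was left out. VEGFA was 0.11 under quantile normalization, 0.004 with the ACTB covariate, 0.59 with the replicate block and -0.34 to 0.16 when 1 sample was left out. CDH5 was -0.039 within pattern A and with the pattern block, and -0.074 without pattern B. VWF was 0.20 within pattern A and with the block, 0.087 with array weights, and -0.32 to 0.27 when 1 sample was left out. KDR was -0.13 within pattern A and with the block, -0.39 without pattern B, -0.26 with the ACTB covariate, -0.022 with array weights and -0.11 to 0.40 when 1 sample was left out. TEK was -0.33 within pattern A and with the block, -0.26 without pattern B, -0.017 with the ACTB covariate and -0.15 with array weights.

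Pairs past the threshold numbered 50 over all tumours and 0 within pattern A, where the exact test can hardly pass the threshold. They numbered 0 with pattern and group means removed over all tumours, in a test with more arrangements. There were 26 over non-metastatic tumours alone, 81 without removing group means, 33 under quantile normalization and 4 to 52 when 1 sample was left out. The median r of surface and junction pairs was 0.424 with pattern and group means removed, and 0.467 to 0.683 when 1 sample was left out. CDH5 with VEGFB was 0.175 within pattern A and 0.181 with pattern and group means removed.

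The labels number both groups from 1, but samples with the same number did not deviate together (correlations of -0.009 to 0.078), so they share only a number. With the replicate block 733 probe sets passed in all, against 2104. NM6, NM7 and NM8 have no metastatic tumour of the same number. The differences with this block therefore compare MET1 to MET5 with NM1 to NM5, of which only NM5 is of pattern A. Signal limits the readings too: for 17 of the 30 genes some samples lay within the no-target range.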
